A study of Mus musculus with 4 samples.

Results

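The pancreatic spots richest in the transcripts of glucagon, somatostatin and pancreatic polypeptide were examined in spatial transcriptomes of 4 mice with acute pancreatitis. Besides insulin, the islet secretes the hormones encoded by these transcripts: glucagon (Gcg) from alpha cells raises blood glucose, somatostatin (Sst) from delta cells restrains the secretion of its neighbours, and pancreatic polypeptide (Ppy) from PP cells acts on the exocrine gland and the gut. In the mouse islet these cells form a thin mantle around a core of beta cells. All endocrine cells pack their hormones into dense-core granules with chromogranins and secretogranins, and process them with prohormone convertases.

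The hormone spots were chosen by their own measured values. Among spots with at least 500 unique molecular identifiers (UMIs, each a captured molecule counted once), the 200 of each section with the highest share of Ins1, Ins2 and Iapp (the insulin genes and amylin) were set aside as insulin-rich spots. Of the rest, the 100 with the highest share of Gcg, Sst and Ppy were taken, provided they held at least 2 UMIs of these genes. This gave 203 hormone spots, 0.753% of the 26960 spots with at least 500 UMIs in 56869 listed spots. The remaining 25957 are called the other spots. A spot of this assay covers several cells, so each value describes a small piece of tissue and not a cell.

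All 4 mice were C57Bl/6, carried the Pdx1-Cre transgene, which drives recombination in the pancreatic epithelium, and were 4 weeks old per the study's methods. They were fasted for 12 h, injected with caerulein, a cholecystokinin analogue, at 50 μg/kg hourly for 8 doses, and euthanized 18 h after the first dose. Both Ehmt2 +/+ sections are labelled as Pdx1-Cre alone, and both Ehmt2 fl/fl sections as knockout of Ehmt2, a histone H3 lysine 9 methyltransferase, with the same Cre. No untreated section was among them. The alignment files place section 1 of each genotype on 1 slide and section 2 of each on the other.

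The sections stood apart in depth, background and sex-linked genes before any comparison. Section 1 of Ehmt2 +/+ held 43784930 UMIs in its 6144 spots with at least 500 UMIs, section 2 of Ehmt2 +/+ 7845575 in 7871, section 1 of Ehmt2 fl/fl 6643747 in 6483, and section 2 of Ehmt2 fl/fl 7938386 in 6462. The 1093 olfactory receptor genes, which the pancreas does not use and which serve as a background, averaged 0.0027 UMIs per gene per 10000 UMIs in the other spots of the deepest section. They averaged 0.0516, 0.0889 and 0.128 in the other 3 sections, in the order given. The Y-linked genes Ddx3y, Eif2s3y, Kdm5d and Uty had 0 or 1 UMI in each Ehmt2 +/+ section and 33 to 139 UMIs in each Ehmt2 fl/fl section, where they lay between 4.97 and 17.5 CPM (the gene's UMIs scaled to a common section total). The average olfactory receptor gene lay at 0.278 and 5.19 CPM in the Ehmt2 +/+ sections and at 8.79 and 12.8 CPM in the Ehmt2 fl/fl sections. Xist, of the inactive X chromosome, had 0 UMIs in all 4 sections, so it gives no reading of sex here. Y-linked counts thus moved with the labelled genotype, and a difference in sex cannot be told apart from genotype here. Ehmt2 itself (chr17:34898469-34914052, GRCm38) was measured at 19.8 and 3.95 CPM in the Ehmt2 +/+ sections and at 10.1 and 12.1 CPM in the Ehmt2 fl/fl sections. These values overlap, all but the first lie within a few CPM of the average olfactory receptor gene, and whether the probe lies in the deleted part is not given in the sources used here, so the gene does not check the labels and the sections are named as labelled.

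The hormone spots were few and thin in hormone transcripts outside the deepest section. They numbered 100 and 33 in Ehmt2 +/+ sections 1 and 2, and 48 and 22 in Ehmt2 fl/fl sections 1 and 2. The limit of 100 was reached in Ehmt2 +/+ section 1 alone, where 222 spots were eligible. The deepest section therefore gave 49.3% of the hormone spots and 83.7% of their 749784 UMIs. Exactly 2 hormone UMIs were found in 109 of the 203 spots (53.7%), namely in 24, 30, 33 and 22 spots of the 4 sections in the same order. The highest counts in a single spot were 37, 4, 8 and 2. In Ehmt2 +/+ section 1 the last spot taken held 4 hormone UMIs of 10105, or 3.96 per 10000, and the first left out held 2 of 5061, or 3.95 per 10000. In the other 3 sections every spot with 2 or more hormone UMIs outside the insulin-rich class was taken, and 304, 333 and 365 spots with exactly 1 were left out.

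Gcg (chr2:62474530-62483650) chose most of the spots. Its UMIs in the hormone spots numbered 373 and 31 in Ehmt2 +/+ sections 1 and 2 and 78 and 24 in Ehmt2 fl/fl sections 1 and 2, which is 5.95, 8.27, 14.3 and 7.90 per 10000 UMIs. The other spots held 0.126, 0.174, 0.308 and 0.205 per 10000. These values set the choice, so the gap between the classes is a description and was not tested.

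Sst (chr16:23889573-23890958) was represented by 165, 34, 45 and 14 UMIs in the hormone spots of the same sections, or 2.63, 9.08, 8.24 and 4.61 per 10000. In the other spots it stood at 0.042, 0.166, 0.145 and 0.170 per 10000. Ppy (chr11:102099930-102101319) had only 2, 5, 3 and 6 UMIs in the hormone spots. In the other spots Ppy stood at 0.003, 0.058, 0.071 and 0.099 per 10000, close to the average olfactory receptor gene of each section. Few spots were therefore chosen by Ppy, and the class is in practice one of Gcg and Sst.

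Gcg and Sst UMIs occurred together in many spots. Both genes, without Ppy, were present in 92 of the 203 spots (45.3%), Gcg alone in 71 and Sst alone in 26. Ppy was the only gene of the 3 in 2 spots. By the larger count, Gcg led in 108 spots, Sst in 45 and Ppy in 2, and 48 were tied. Spots led by Gcg numbered 67, 10, 23 and 8 in the 4 sections, and spots led by Sst 18, 11, 13 and 3. Gcg-leading and Sst-leading spots were compared on the genes outside the choice with edgeR, section as a block: 0 of 114 genes tested were higher and 0 lower (0% either way), none at an unadjusted p below 0.05, and 0 with DESeq2. The 114 genes tested held 12 acinar markers and 1 granule gene, Chga, and no alpha, delta or PP marker had enough UMIs to be tested, so the comparison says little about cell identity at this depth.

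Most Gcg, Sst and Ppy UMIs lay outside the hormone spots. Of 7516 UMIs of the 3 genes, the hormone spots held 780 (10.4%), the 800 insulin-rich spots 5017 (66.8%) and the other spots 1719 (22.9%). These sums follow the deepest section. By section in the order given, the insulin-rich spots held 75.7%, 46.4%, 56.8% and 29.1% and the other spots 13.8%, 43.6%, 31.4% and 63.3%. Without Ehmt2 +/+ section 1 the insulin-rich spots held 46.9% and the other spots 42.9%. Gcg had 3109 and 176 UMIs in the insulin-rich spots of the Ehmt2 +/+ sections and 493 and 125 in those of the Ehmt2 fl/fl sections, between 6.05 and 26.5 per 10000, which was above the hormone spots of the same section in all but Ehmt2 fl/fl section 2. Sst stood at 6.51, 8.64, 4.53 and 1.89 per 10000 in the insulin-rich spots, above the hormone spots in Ehmt2 +/+ section 1 alone. Conversely, insulin genes were still detected in 168 of the 203 hormone spots, namely in 97.0%, 66.7%, 81.2% and 45.5% of those of the 4 sections. They were detected in 28.9%, 12.7%, 32.0% and 14.2% of the other spots. Ins1, Ins2 and Iapp together made up 20.2 and 13.3 per 10000 UMIs in the hormone spots of the Ehmt2 +/+ sections and 115 and 7.90 in those of the Ehmt2 fl/fl sections. The lowest share that put a spot among the insulin-rich ones was 43.1, 56.1, 276 and 36.5 per 10000, so the high value in Ehmt2 fl/fl section 1 goes with the highest cut.

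**Figure D1:**
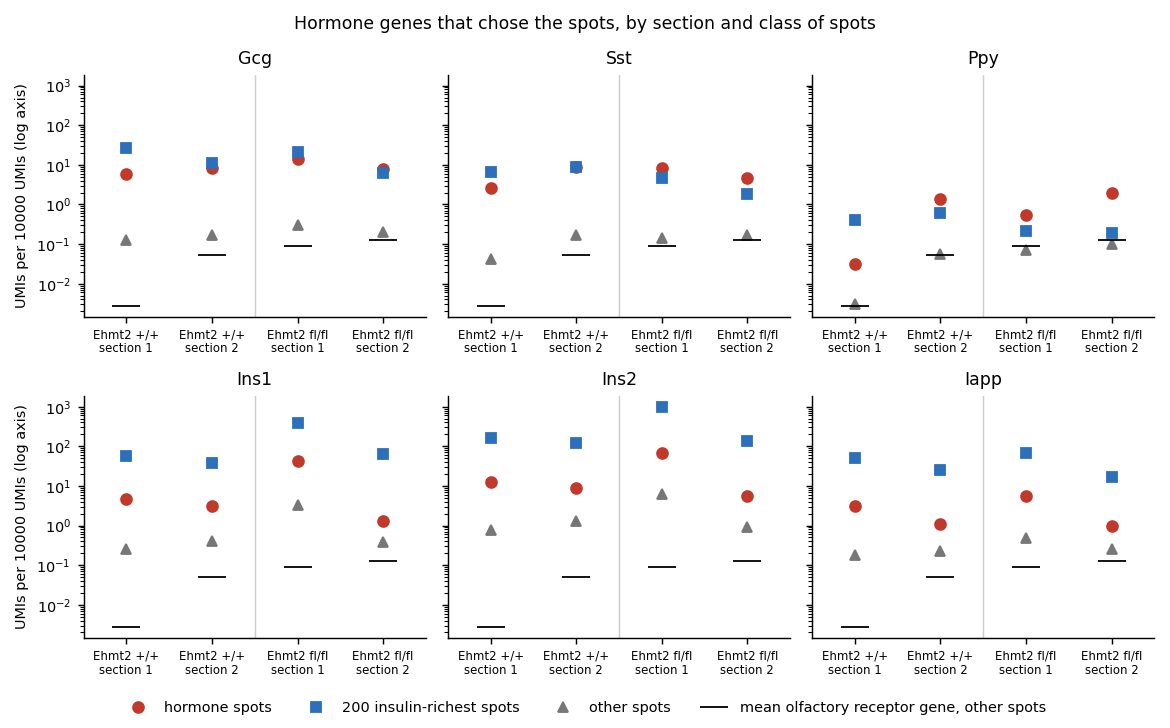
UMIs per 10000 UMIs (log axis) of the 6 genes used to choose the spots, by section, in hormone spots (red circles), the 200 insulin-richest spots of each section (blue squares) and the other spots (grey triangles), with the mean olfactory receptor gene of the other spots as a black line. Gcg in the hormone spots lies between 5.95 and 14.3 per 10000, while Ppy in the other spots sits at or near the black line.

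Genes outside the choice were then compared between the hormone spots and the other spots of the same sections, to see what else these pieces of tissue contain. The rise was led by proteins of the endocrine granule. Of 19883 genes tested, 13 were higher in the hormone spots (0.0654% of the genes tested) and 1745 lower (8.78%) at an adjusted p below 0.05 (edgeR quasi-likelihood test on UMIs summed per section and class, section as a block, Benjamini-Hochberg adjustment). The 13 were Chga, Pcsk1n, Pyy, Resp18, Scg3, Chgb, Vip, Syt13, Ttr, Scg2, Ptprn, Pcsk2 and Kcnk16. All 13 were also called with plain library sizes, whereas only 2 of the 1745 lower calls were. The scaling (TMM) placed the median gene at -0.79 on the log2 scale, against 0.04 with library sizes, where 17 genes were higher and 2 lower. Higher genes were thus 0.739% of all calls under TMM and 89.5% with library sizes, so the lower calls are not read further here.

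Chga (chr12:102554969-102565028), encoding chromogranin A, a core protein of endocrine granules, gave the firmest difference. It had 291 and 16 UMIs in the hormone spots of Ehmt2 +/+ sections 1 and 2, and 60 and 9 in those of Ehmt2 fl/fl sections 1 and 2. The ratio to the other spots of the same section, with the 6 choosing genes left out of the totals, was 24.7, 10.8, 12.0 and 6.57. It was thus higher in all 4 sections. The log2 fold change of Chga was 3.10 ± 0.18 (SE of the fit, edgeR adjusted p = 4.2e-59), or 3.89 above the median gene. This SE comes from the fitted dispersion and is not the spread of the section ratios. A Chga UMI was found in 80.0%, 36.4%, 58.3% and 27.3% of the hormone spots, and in 8.85%, 3.23%, 7.04% and 4.60% of the other spots. Median depth was 5227, 936, 1034 and 1421 UMIs in the hormone spots and 6377, 877.5, 977 and 1119 in the other spots. After random thinning of all spots to 500 UMIs, a Chga UMI was left in 22.0%, 27.3%, 37.5% and 13.6% of the hormone spots and in 1.18%, 1.91%, 4.23% and 2.24% of the other spots.

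Pcsk1n (chrX:7919822-7924410), encoding proSAAS, an inhibitor of prohormone convertase 1, had 92, 6, 32 and 1 UMIs in the hormone spots in the same order. Its log2 fold change was 3.16 ± 0.23 (SE, edgeR adjusted p = 2.7e-38), and it too was above the other spots in every section. Of the other granule genes, Chgb, Scg2 and Scg3 encode further members of the granin family and Resp18 a regulated endocrine protein. Chgb had 18, 0, 8 and 2 UMIs, Scg2 16, 1, 2 and 2, Scg3 20, 1, 2 and 3, and Resp18 20, 3, 9 and 0. Outside the deepest section these genes rested on few molecules, at most 9 UMIs in a section. Their log2 fold changes were 2.48, 2.32, 2.65 and 2.82, with adjusted p between 4.7e-08 and 0.00027.

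Of the 14 granule genes listed, 7 were higher, 1 was lower and 6 did not pass. Their median log2 fold change was 1.69, against -0.79 for all genes tested. The seventh, Ptprn, encodes a receptor-like phosphatase of the granule membrane. Gnas, which encodes a G-protein subunit found in many cell types, was the member called lower, and was not called with library sizes. Cpe and Scg5, a carboxypeptidase and a chaperone of hormone processing, had log2 fold changes of -0.05 and 1.22 and did not pass (edgeR adjusted p = 0.95 and 0.30). Summed over the 14 genes, the hormone spots held 11.3, 8.54, 26.7 and 9.88 per 10000 UMIs. The other spots held 3.34, 3.75, 5.91 and 5.67, so the hormone spots were higher in each section. Chga gave 790, 302, 591 and 348 of the 14039, 2870, 3759 and 4369 UMIs of this sum in the other spots. Gnas had a UMI in 68.5%, 19.5%, 24.6% and 29.8% of those spots. The sum, here and below, thus does not measure endocrine granules alone.

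**Figure D2:**
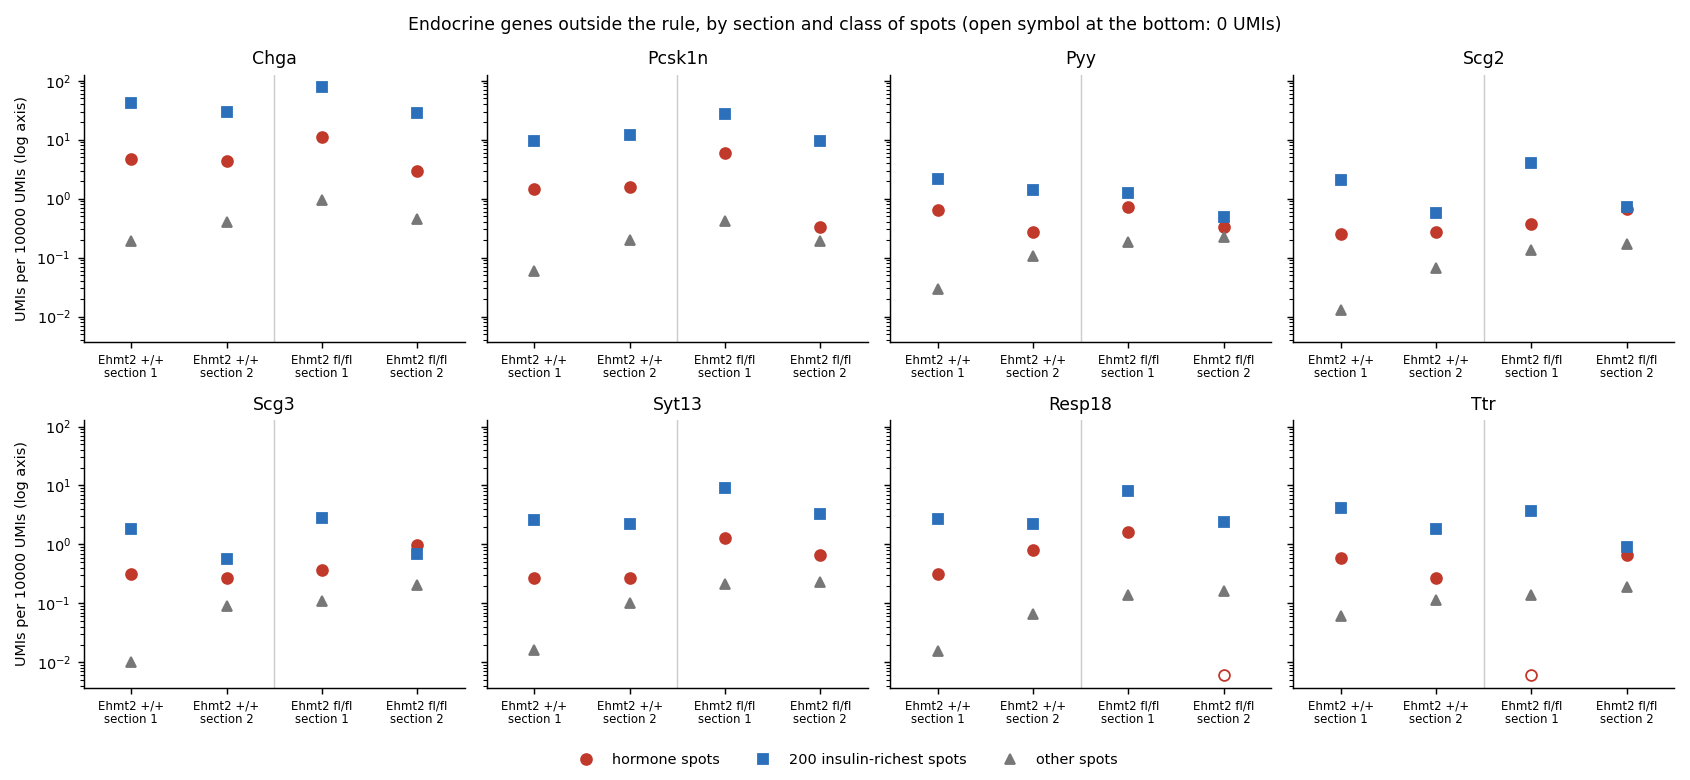
UMIs per 10000 UMIs (log axis) of 8 genes that did not choose the spots, by section, in hormone spots (red circles), the 200 insulin-richest spots (blue squares) and the other spots (grey triangles), with open symbols for 0 UMIs. Chga lies above the other spots and below the insulin-rich spots in all 4 sections.

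Fewer markers of the single endocrine types were called than granule genes, and the difference between the lists was not tested. By section in the order given, the summed alpha list stood at 4.59, 1.43, 1.03 and 1.18 times the other spots. The granule list stood at 3.38, 2.28, 4.52 and 1.74 times. For alpha cells, 2 of 15 listed genes were higher, 0 lower and 13 did not pass. Ttr, encoding transthyretin, had 37, 1, 0 and 2 UMIs (log2 fold change 1.81, edgeR adjusted p = 0.00011), and Pcsk2, the convertase that releases glucagon, had 11, 1, 2 and 0 (2.30, edgeR adjusted p = 0.0037). Irx1 had 4, 0, 0 and 1 UMIs and Irx2, another Iroquois transcription factor, 0, 0, 2 and 1, and neither passed. Summed over the list, the hormone spots held 1.07, 1.60, 2.38 and 3.29 per 10000 and the other spots 0.23, 1.12, 2.32 and 2.80. In the Ehmt2 fl/fl sections these sums nearly meet, on 13 and 10 UMIs in the hormone spots. The list sums 15 genes. In the other spots the average olfactory receptor gene stood at 0.0889 and 0.128 per 10000 in the Ehmt2 fl/fl sections, against 0.0027 and 0.0516 in the Ehmt2 +/+ sections. The part of this background in the ratios was not tested.

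For delta cells, 0 of the 9 genes tested were called in either direction. Hhex, the transcription factor of delta cells, had 4, 0, 2 and 0 UMIs and Rbp4, a retinol carrier, 7, 0, 1 and 1. For PP cells, Pyy was higher and Cd9 lower among 8 genes, and Cd9 was not called with library sizes. Aqp3 had 0 UMIs in every hormone spot. Pyy (chr11:102106676-102107832), encoding peptide YY, is the neighbour of Ppy on the chromosome and is made by islet and gut endocrine cells. It had 40, 1, 4 and 1 UMIs, and its log2 fold change was 2.55 ± 0.35 (SE, edgeR adjusted p = 2.9e-09). Beyond the hormones that chose them, the spots were thus higher in 7 of 14 granule genes, in 2 of 15 alpha genes (Ttr and Pcsk2), in none of 9 delta genes and in 1 of 8 PP genes (Pyy), and most UMIs of Ttr, Pcsk2 and Pyy came from the deepest section.

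The remaining endocrine genes were sparse. None of the 12 endocrine transcription factors passed, among them Nkx2-2 with 24, 2, 6 and 2 UMIs, which was called with library sizes but not under TMM (log2 fold change 0.61, edgeR adjusted p = 0.24). None of 13 hormone receptors passed. Syt13, a synaptotagmin of secretory cells, was higher with 17, 1, 7 and 2 UMIs (2.20, edgeR adjusted p = 5.7e-05), and Kcnk16, an islet potassium channel, with 8, 0, 1 and 3 (1.83, edgeR adjusted p = 0.035). Vip, a neuropeptide of pancreatic nerves, had 26 of its 27 UMIs in Ehmt2 +/+ section 1 and none in either Ehmt2 fl/fl section, and its call ends without that section. Of the Schwann cell and nerve list, 10 genes were tested, 0 higher and 1 (Cryab) lower, which was not called with library sizes. The list summed to 0.65, 2.67, 1.65 and 0.99 per 10000.

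Without Ehmt2 +/+ section 1, 2 of the 13 genes, Chga and Pcsk1n, remained called, and all but Vip kept the sign. With a mean over spots of log2 CPM per section (limma) 0 genes were called, although 836 had an unadjusted p below 0.05, and all 13 kept their sign.

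Markers of exocrine and other cells were read beside these. Digestive enzyme and juice genes took 65.9% and 58.2% of the UMIs of the hormone spots in the Ehmt2 +/+ sections and 24.4% and 19.8% in the Ehmt2 fl/fl sections. In the other spots they took 68.3%, 57.8%, 24.0% and 22.7%. Of 10 endothelial markers, 0 were called either way. Their sum was 1.94, 2.40, 9.34 and 5.27 per 10000 in the hormone spots and 1.22, 2.44, 6.77 and 5.86 in the other spots, higher in section 1 of each genotype and lower in section 2 of each. Plvap, of fenestrated capillaries, was the most abundant with 59, 1, 26 and 7 UMIs. Of 10 fibroblast markers 0 were higher and 1 (Fn1) lower, which was not called with library sizes. Their sum was 9.53, 10.9, 21.8 and 27.3 per 10000 in the hormone spots and 4.83, 6.56, 25.7 and 22.9 in the other spots, higher in all sections but Ehmt2 fl/fl section 1. With library sizes Col1a2 and Col4a1, a fibrillar and a basement membrane collagen, were also higher (0.75 and 0.61), as was Gpx3, a secreted glutathione peroxidase (1.22). Col1a2 was higher in every section. Col4a1 was lower in Ehmt2 +/+ section 2, at 2.14 against 3.54 per 10000 in the other spots. Gpx3 was lower in Ehmt2 fl/fl section 2, at 0.66 against 0.97.

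The granule genes were next followed by whether a spot also held insulin-gene UMIs, since beta cells share the same granule proteins. In the hormone spots with insulin-gene UMIs the 14 granule genes summed to 11.4 and 6.59 per 10000 in the Ehmt2 +/+ sections and to 31.4 and 13.8 in the Ehmt2 fl/fl sections. The 35 hormone spots without any insulin-gene UMI numbered 3, 11, 9 and 12, and held 4.21, 12.1, 2.28 and 6.64. In 3 of the 4 sections the spots without insulin transcripts were thus lower, and in Ehmt2 +/+ section 2 they were higher. Other spots without insulin-gene UMIs held 3.13, 3.38, 4.76 and 5.48. Chga had 1, 8, 0 and 1 UMIs in the hormone spots without insulin transcripts, so that 8 of 10 came from Ehmt2 +/+ section 2. Restricted to these 35 spots, 0 genes were higher and 313 lower than in the other spots, with the median gene at -2.65. The part of beta cells within the spots in the granule signal was not tested beyond these values.

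**Figure D3:**
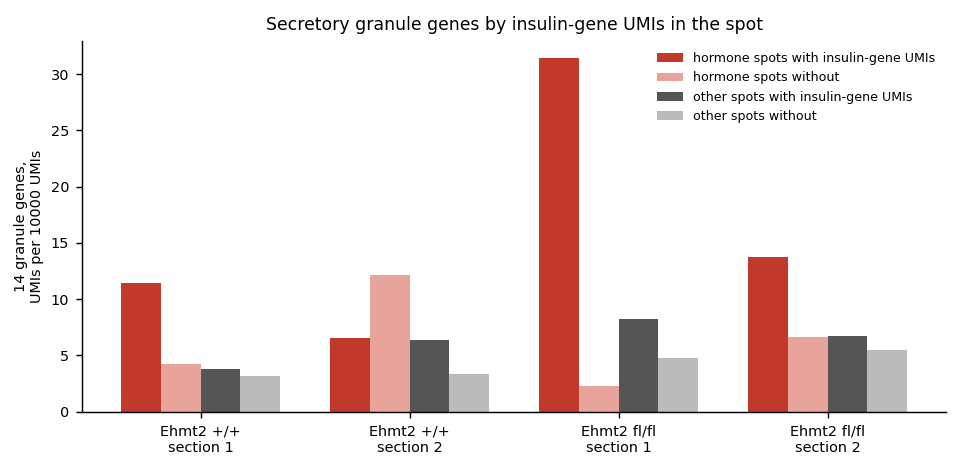
Summed UMIs of 14 secretory granule genes per 10000 UMIs, by section, in hormone spots with and without insulin-gene UMIs (red and pale red bars) and in other spots with and without them (dark and pale grey bars). The bar of hormone spots with insulin-gene UMIs is the highest in 3 sections, and in Ehmt2 +/+ section 2 the spots without them are higher, at 12.1.

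The granule signal also varied with the hormone count. Spots with exactly 2 hormone UMIs held 7.43, 7.99, 20.7 and 9.88 granule UMIs per 10000, and spots with 3 or more held 11.8, 16.5 and 38.1 in the 3 sections that had any, where the 16.5 of Ehmt2 +/+ section 2 rests on 4 granule UMIs in 3 spots. Spots of the other class with a single hormone UMI held 3.97, 6.92, 8.88 and 5.46. In Ehmt2 +/+ section 1 the other class also had 122 spots with 2 or more hormone UMIs, which are in none of these groups. In the 3 sections with spots of 3 or more, the level was higher in each of these groups of higher hormone count, as a description without a test. Insulin-gene UMIs rose over the same groups. From 1 to 2 to 3 or more they stood at 3.46, 15.1 and 20.9 per 10000 in Ehmt2 +/+ section 1 and 6.49, 12.3 and 28.9 in section 2. Ehmt2 fl/fl section 1 had 30.7, 99.4 and 145, and section 2 had 2.09 and 7.90. Whether the granule level follows the hormone or the insulin content was not tested.

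The insulin-rich spots are the class most like the hormone spots, and endocrine genes were lower in the hormone spots than there. Of 3391 genes tested, 0 were higher in the hormone spots (0%) and 66 lower (1.95%), with the median gene at 0.00 (edgeR, section as a block). At an unadjusted p below 0.05 there were 263 genes, and DESeq2 called 0 higher and 19 lower. Chga had 4997, 465, 1837 and 579 UMIs in the insulin-rich spots, and was lower in the hormone spots by a log2 fold change of -3.00 ± 0.19 (SE, edgeR adjusted p = 4.3e-52). Of the 66 lower genes 24 met the level of the low-count filter in no section of the hormone spots, and without the filter 61 of the 66 remained called. Those 24 were tested only through the insulin-rich spots, so the ones named here are given by their UMIs. In section order the hormone spots held 627310, 37464, 54633 and 30377 UMIs in all, and the insulin-rich spots 1175024, 159772, 231679 and 206441. Of 13 granule genes tested 11 were lower, and 8 of these met the level in a section of the hormone spots, among them Pcsk1n at -2.60, Chgb at -2.64 and Resp18 at -2.67. The other 3 were Scg5, Ptprn2 and Scgn, a calcium-binding protein with 6, 0, 2 and 0 UMIs in the hormone spots against 99, 10, 27 and 11 in the insulin-rich spots.

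Few markers of the single islet types could be compared. The UMIs given here are to be read against the class totals above, which were larger in the insulin-rich spots of every section. Of 5 beta cell markers tested, the 4 called (Ucn3, Mafa, G6pc2 and Slc30a8) were all under the filter level in the hormone spots. Ucn3, encoding urocortin 3 of mature beta cells, had 6, 0, 0 and 0 UMIs in the hormone spots against 97, 13, 33 and 13 in the insulin-rich spots. Mafa, a beta cell transcription factor, had 15, 0, 1 and 0 against 300, 36, 88 and 8. For alpha cells, Ttr was lower (-2.71, edgeR adjusted p = 2.8e-22), while Pcsk2, with 11, 1, 2 and 0 UMIs against 90, 4, 31 and 6, was under the filter level. So was Frzb, a secreted Wnt-binding protein and the only delta gene tested, with 3, 1, 0 and 1 against 67, 12, 34 and 28. Pyy was the 1 gene called, and lower, of 3 PP genes tested (-1.49, edgeR adjusted p = 1.7e-06). Syt13 was lower as well (-2.95), and Gng4, a G-protein gamma subunit under the filter level, had 8, 1, 0 and 0 UMIs against 114, 13, 38 and 14. No listed acinar, endothelial or immune gene was called. Without Ehmt2 fl/fl section 2 there were 27 genes higher in the hormone spots, and DESeq2, the left-out sections and the stricter choices of spots gave between 11 and 74 lower.

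The hormone spots were then compared between genotypes, which asks whether the tissue around the non-beta hormone cells differed in the knockout. Digestive enzyme genes were lower in the sections labelled Ehmt2 fl/fl, no endocrine gene was called, and the calls depended on the filter and the scaling. Of 396 genes with enough UMIs, 49 were higher in the sections labelled Ehmt2 fl/fl (12.4%) and 70 lower (17.7%) by edgeR. Without the filter on low counts 0 of 17917 genes were called either way (485 at an unadjusted p below 0.05), and 0 were called among spots with at least 3 hormone UMIs, of which Ehmt2 fl/fl section 2 has none. The filter required 2.19 UMIs per 10000 in 2 sections. Of the 49 higher genes 42 met this level in neither Ehmt2 +/+ section, and of the 70 lower genes 11 met it in neither Ehmt2 fl/fl section. Such genes were tested only through the genotype where they are high, so they are given below by their values and not by a test. Their UMIs rest on unlike hormone-spot totals: 627310 and 37464 UMIs in the Ehmt2 +/+ sections and 54633 and 30377 in the Ehmt2 fl/fl sections. The scaling decides the split of the calls. With library sizes 318 were higher and 27 lower, with the median gene at 1.92 against -0.01 under TMM, and the share of higher genes among the calls moved from 41.2% to 92.2%. These library sizes are sums over the 396 genes tested alone, at 500689, 26816, 25300 and 11995 UMIs. They leave out a larger part of the full totals in the Ehmt2 fl/fl sections, which raises every gene there on this scale. All 49 higher genes were also called higher with library sizes, but 26 of the 70 lower genes changed sign. Each genotype had 2 mice, and each slide held 1 section of both genotypes.

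Digestive enzymes were among the lower genes. All 12 acinar markers tested were lower, 11 of them also with library sizes, and 1 of the 12 (Try4) was under the filter level in both Ehmt2 fl/fl sections. Of the 26 digestive enzyme and juice genes tested 23 were lower, of which 2 (Try4 and Pnliprp2) were under the filter level in both Ehmt2 fl/fl sections and 21 were not. The acinar list summed to 5314 and 4625 per 10000 UMIs in the Ehmt2 +/+ sections and to 1910 and 1547 in the Ehmt2 fl/fl sections. Ctrb1, chymotrypsinogen B, was its most abundant gene. Cpb1 was at 0 in every section, which is not read as a measured absence. Cela2a, a pancreatic elastase (chr4:141814962-141826160), had 42618 and 2436 UMIs in the Ehmt2 +/+ sections and 465 and 173 in the Ehmt2 fl/fl sections, which is 681, 652, 86.3 and 57.1 per 10000 with the choosing genes left out. The groups did not overlap, and the log2 fold change was -4.26 ± 0.35 (SE, edgeR adjusted p = 3.4e-07). Within slide 1 the log2 ratio was -2.98 and within slide 2 -3.51, before TMM scaling. Pnlip (-4.39), Clps (-3.88), Rnase1 (-3.56) and Klk1 (-3.30), which encode a lipase, its colipase, a ribonuclease and a kallikrein, were lower alike. With library sizes these changes were smaller, at -2.49, -2.02, -1.70 and -1.44, and that of Cela2a was -2.42. Try4 and Pdia2, a trypsinogen and a pancreatic disulfide isomerase, are among the 11 genes under the filter level in the Ehmt2 fl/fl sections, with 529, 12, 10 and 2 UMIs for Try4 and 225, 10, 2 and 4 for Pdia2. These counts rest on the unlike totals above and are not fold changes. Prss1, another trypsinogen gene, went the other way within the same list, at 4.94 and 6.69 per 10000 against 45.7 and 33.0.

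Of the Reg genes, secreted proteins of the injured acinus, Reg3b was lower (-3.99, edgeR adjusted p = 4.1e-05, and -2.15 with library sizes). Reg3b stood at 36.4 and 38.0 per 10000 in the Ehmt2 +/+ sections and at 6.68 and 2.64 in the Ehmt2 fl/fl sections. Reg2 and Reg3d, with 1152, 34, 10 and 2 UMIs and 306, 11, 5 and 3 UMIs on the same unlike totals, were under the filter level in both Ehmt2 fl/fl sections. Of 15 injury-response genes tested, 7 were lower and 4 higher, and with library sizes 3 were lower and 8 higher. The 4 higher were Lcn2, Spp1, Cd44 and Anxa2, encoding lipocalin 2, osteopontin, the hyaluronan receptor and annexin A2, and all 4 were under the filter level in both Ehmt2 +/+ sections. Cd44 stood at 0.863 and 0.536 per 10000 in the Ehmt2 +/+ sections and at 5.20 and 6.27 in the Ehmt2 fl/fl sections.

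Other genes named on the higher side encode matrix and innate immune proteins, and each was under the filter level in both Ehmt2 +/+ sections. Mmp7, a matrix metalloproteinase, had 0 and 4 UMIs in the Ehmt2 +/+ sections and 30 and 16 in the Ehmt2 fl/fl sections. Cxcl14, a chemokine, had 15 and 0 against 36 and 17. Slpi, a protease inhibitor, had 9 and 0 against 14 and 15, and Lcn2, an iron-siderophore carrier, 12 and 1 against 16 and 16. Tgfbi and Thbs1, which encode matrix proteins, had 10 and 0 against 12 and 12 and 16 and 0 against 26 and 13. Per 10000 UMIs the last 5 lay between 0 and 0.268 in the Ehmt2 +/+ sections and between 2.23 and 6.68 in the Ehmt2 fl/fl sections. Cd74, of antigen presentation, was the only macrophage-list gene tested and had 40 and 5 UMIs against 42 and 12. All UMIs in this paragraph rest on the unlike section totals given above. Gm21310 and Gm20854 lie on the Y chromosome (chrY:10144735-10147183 and chrY:85528517-85530908) and had 0 or 2 UMIs in the Ehmt2 +/+ sections against 15 to 29 in the Ehmt2 fl/fl sections. They follow the sex-linked genes above. The olfactory receptor genes moved with genotype as well, at 3.70 and 53.4 per 10000 in the hormone spots of the Ehmt2 +/+ sections and 86.4 and 152 in those of the Ehmt2 fl/fl sections. Their part in the higher calls was not tested.

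**Figure D4:**
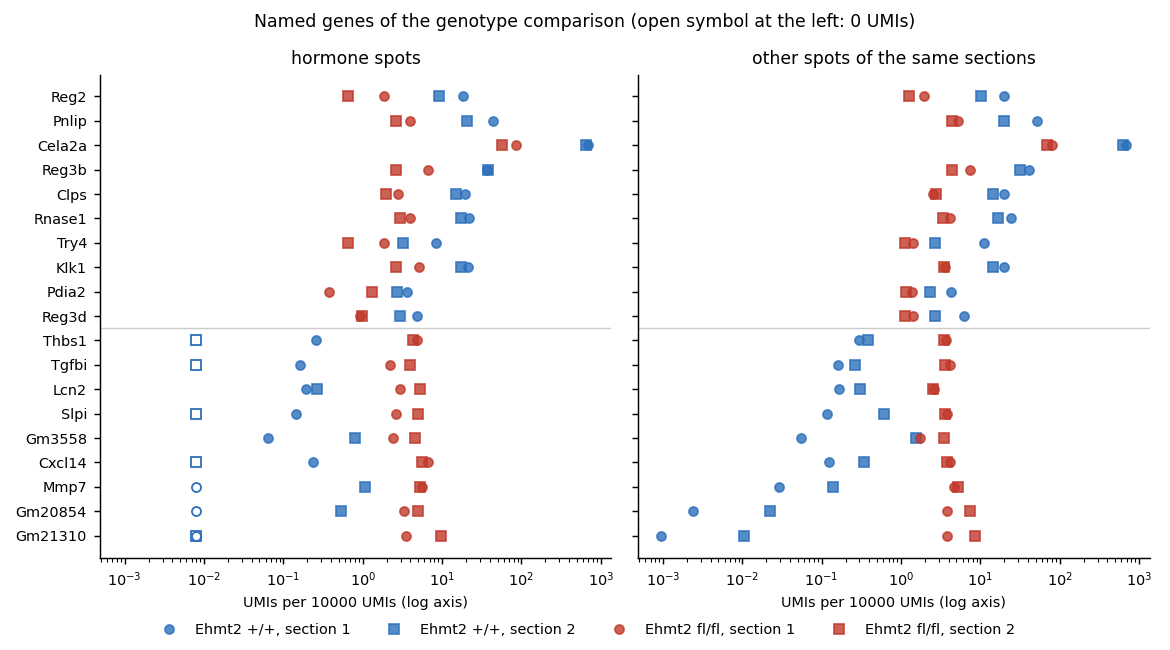
UMIs per 10000 UMIs (log axis) of genes named between genotypes, in hormone spots (left) and in the other spots of the same sections (right), with Ehmt2 +/+ sections in blue, Ehmt2 fl/fl sections in red, and open symbols for 0 UMIs. The lower genes stand above the line and the higher genes below it, and the genotypes separate the same way in both panels.

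The same genes were also read in the other spots, per 10000 UMIs and without TMM scaling. There the values of all 49 higher genes were without overlap and in the same direction, on a background in which 305 of all 396 genes tested (77.0%) lay higher without overlap in the Ehmt2 fl/fl sections. In the hormone spots 275 of the 396 (69.4%) did so. Of the 70 lower genes 47 lay lower without overlap in the other spots and 46 in the hormone spots, where 48 (12.1%) and 46 (11.6%) of all 396 did. The groups overlapped in the other spots for 16 of the 70, and 7 (Cox6b1, Cyc1, Marc2, Rela, Sdf4, Srsf6 and Tpd52, named after their values were seen) separated the opposite way there. The difference between genotypes in how hormone spots compare with the other spots was tested as an interaction, and 0 of 19883 genes were higher and 0 lower (0% either way), with 335 at an unadjusted p below 0.05. A missed threshold in 4 sections does not show that the genotypes are alike.

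Endocrine genes could scarcely be compared between genotypes at this depth. Of the 14 granule genes only Chga and Gnas were tested, with log2 fold changes of -0.37 and -0.41 (edgeR adjusted p = 0.61 and 0.53). Both were called higher with library sizes, summed over the genes tested alone. Chga was measured at 4.65 and 4.28 per 10000 in the Ehmt2 +/+ sections and at 11.1 and 2.97 in the Ehmt2 fl/fl sections, so the groups overlapped. No alpha, delta, PP or beta marker passed the filter on low counts.

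Over whole sections, free of the choice of spots, Gcg and Sst overlapped between genotypes, and the separation of Ppy depended on the minimum of 500 UMIs. Gcg was at 91.6 and 43.3 CPM in the Ehmt2 +/+ sections and at 115 and 38.7 CPM in the Ehmt2 fl/fl sections, a difference in means of 9.61 CPM (two-sided exact permutation test, p = 1.0, n = 2 per genotype). Sst was at 25.3 and 38.1 against 36.4 and 23.2 CPM, a difference of -1.89 CPM (exact p = 0.667). Ppy was at 1.44 and 7.52 against 7.98 and 10.8 CPM, a difference of 4.93 CPM without overlap (exact p = 0.333), which is the smallest p that 2 against 2 sections allow. Over all spots with at least 1 UMI, Ppy was at 1.44 and 8.68 against 7.85 and 11.02 CPM, so that the groups overlapped (exact p = 0.667). The average olfactory receptor gene, at 0.278 and 5.19 against 8.79 and 12.8 CPM, was also without overlap. The sections differ in enzyme content, and with digestive genes left out of the totals the differences were -93.8 CPM for Gcg, -45.7 CPM for Sst and 1.10 CPM for Ppy. On that scale Sst lay at 79.1 and 89.9 against 47.7 and 30.0 CPM without overlap (exact p = 0.333), while Gcg and Ppy overlapped. The sum of the 3 genes, at 370 and 209.9 against 209.4 and 93.9 CPM, did not overlap either (exact p = 0.333). Within slide 1 Gcg was 23.9 CPM higher in the section labelled Ehmt2 fl/fl, and within slide 2 the difference was -4.66 CPM. With digestive genes left out the differences within slides 1 and 2 were -135 and -52.3 CPM for Gcg and -31.4 and -59.9 CPM for Sst. Fewer hormone cells in a section and less hormone RNA per cell cannot be told apart in such sums.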

How the data were processed

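Pancreas sections of 4 mice were profiled with the CytAssist Visium workflow, and the authors counted UMIs with Space Ranger 2.0.1 per the file headers on mm10. The authors deposited unnormalized UMI counts, whole numbers for each gene in each spot, on and off the tissue. Alignment files mark 5818, 9915, 7549 and 7653 positions as tissue but carry no barcodes and cannot be matched to spots. Spots were therefore kept at 500 or more UMIs. In Ehmt2 +/+ section 1 the 6144 spots kept outnumber the 5818 marked positions, so some of them lay outside the marked tissue. All sections use the same set of spot barcodes, and 13898 are listed in each. Of 32589 features, 304 with a deprecated probe mark were left out.

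The members and gene lists were chosen with earlier results of these data known. Labels assign 2 sections to each genotype, numbered in accession order, each from its own mouse. Counts were summed per section and class and tested with edgeR 4.0.16 in R 4.3.3 (quasi-likelihood test, TMM, filterByExpr at a minimum of 10 counts, adjusted p by Benjamini-Hochberg, threshold 0.05). Gcg, Sst, Ppy, Ins1, Ins2 and Iapp chose the classes and were left out of totals and tests. Library sizes in the tests were totals over the genes that passed the filter. Class comparisons had section as a block. Log2 fold changes name the first class over the second, or fl/fl over +/+. Each SE is the size of the log2 fold change divided by the square root of the edgeR F statistic. It is not a spread over sections. Named genes were the listed genes and, per comparison, up to 10 in each direction with the largest called change, the same direction in every section (no overlap between genotypes) and at least 10 UMIs in either class in every section. Some genes under this rule are not reported here. Shares have exact Clopper-Pearson 95% intervals in the tables, which cover counting error only. On simulated data with 200 genes changed by 2 on the log2 scale, 175 of 200 were recovered with 4 false calls for hormone against other spots at the dispersion of these data (18613 genes), and 179 of 200 with 10 false calls between genotypes (437 genes). Alternatives were DESeq2 1.42.0, library sizes without TMM, no filter, the 50 highest-scoring spots, at least 3 hormone UMIs, at least 1000 UMIs, digestive genes left out, other spots of like depth, hormone spots without insulin-gene UMIs, a mean over spots of log2(CPM + 1) with limma 3.58.1, and each section left out. The slide as a block, and limma for the insulin-rich comparison, were added after seeing the data. The rest was done in Python 3.11.15 (pandas 2.3.3, numpy 2.4.6, matplotlib 3.10.9 and scipy 1.17.1).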

Additional observations from a re-analysis of the deposited data

Results flagged for a closer look

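Hormone transcripts were also found in spots under 500 UMIs, which entered only the whole-section sums over all spots with at least 1 UMI. Gcg, Sst and Ppy together had 48 and 249 UMIs there in Ehmt2 +/+ sections 1 and 2, and 37 and 67 in Ehmt2 fl/fl sections 1 and 2, more than a count of 0 allows. With 2 sections per genotype no group was large enough to test for a section far from the others.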

How the results depend on the processing

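Genes higher in hormone spots than in other spots numbered 13 as reported, 5 with DESeq2 and 8 against other spots of like depth. At like depth 7 of the 13 were tested, and all 7 were called. The higher count was 0 by limma on the mean over spots and 0 in spots without insulin-gene UMIs. With 1 section left out it was 2 to 14 (2 without Ehmt2 +/+ section 1). The lower count of 1745 became 0 with DESeq2 and limma, 2 with library sizes, 3 at like depth, 313 without insulin-gene UMIs, 409 with at least 3 hormone UMIs, 4671 with spots of at least 1000 UMIs, and 6 to 1803 with 1 section left out (6 without Ehmt2 +/+ section 1, 55 without Ehmt2 +/+ section 2). Log2 fold changes below 0 in the spots without insulin-gene UMIs, where the median gene stood at -2.65, were Ptprn -1.04, Resp18 -0.76, Syt13 -8.95, Chgb -8.57, Pcsk2 -8.07, Vip -0.69, Pyy -0.30, Chga -0.013, Kcnk16 -0.56, Ttr -1.39 and Pcsk1n -1.03. All but Syt13, Chgb and Pcsk2 lay above that median gene, so their sign is not read as a reversal. The cause of the lower values was not tested, beyond the fewer spots. Vip ranged from -1.14 without Ehmt2 +/+ section 1 to 2.85 without Ehmt2 fl/fl section 1. Against insulin-rich spots, the 0 higher genes became 1 with the 50 highest-scoring spots, with at least 3 hormone UMIs and with digestive genes left out, and 0 to 27 with 1 section left out. The 66 lower became 116 with library sizes, 19 with DESeq2, 35 with at least 3 hormone UMIs, 41 with at least 1000 UMIs, 2 with limma, and 11 to 74 with 1 section left out.

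Between genotypes, the 49 higher and 70 lower genes became 318 and 27 with library sizes, 12 and 44 with DESeq2, 0 and 0 without the filter (485 at an unadjusted p below 0.05), 0 and 0 with at least 3 hormone UMIs, where Ehmt2 fl/fl section 2 has no spot, and 42 and 65 with the slide as a block. The lower count was 30 with at least 1000 UMIs and 37 with digestive genes left out. With 1 section left out there were 6 to 35 higher (6 without Ehmt2 +/+ section 1, 14 and 18 without Ehmt2 fl/fl sections 1 and 2) and 27 to 90 lower. The interaction and the Gcg-leading against Sst-leading comparison called 0 genes with any section left out. Whole-section differences with digestive genes left out were -93.8 (Gcg), -45.7 (Sst), 1.10 (Ppy) and -138 CPM (sum), against 12.6 CPM for the sum as reported. The labels give no replicate numbers shared between genotypes, so the slide was the only pairing tried. For named genes, 125 of 176 alternative values kept direction and call against other spots, 104 of 117 against insulin-rich spots and 155 of 210 between genotypes.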
